A study of Mus musculus with 27 samples.

Results

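Replicate arrays numbered 3 were set against replicate arrays numbered 1 and 2 in the 4 groups of sorted mouse retinal cells with the most cones. The members were 12 of the 27 arrays of the series: 4 arrays numbered 3, here the third arrays, and 8 arrays numbered 1 and 2, the first and second arrays, from the groups with 150, 157, 183 and 200 cone cells. The members were chosen by these measured values, lower cone genes and higher rod genes on the third arrays, so every value of the comparison is a description without a test. What else moved on them was followed across 12441 genes.

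The study asked how linearly array values follow the amount of RNA, by sorting mixtures of 2 retinal cell types, 200 cells on each array, from dissociated adult retina. Cone cells came from Tg(Chrnb4-EGFP)1Gsat mice, which express GFP under regulatory sequence of the nicotinic receptor subunit gene Chrnb4. Starburst amacrine cells, inner retinal neurons that release acetylcholine, came from a cross of 129S6-Chat_tm1(cre)Lowl/J, in which Chat drives Cre, with the reporter line Rosa26-LSL-RFP, in which Cre switches on RFP. The third, first and second arrays of a group carry the same labels apart from their number.

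The cone-rich groups held 50 starburst with 150 cone cells, 43 with 157, 17 with 183, and 200 cone cells alone, each with 1 array of each number. The 12 starburst-rich arrays, which the choice of the comparison did not use, held 200 starburst cells alone, or 150 with 50, 125 with 75 and 100 with 100 cone cells, again with 3 arrays a group. The remaining 3 arrays held amacrine cells of Tg(Arc-EGFP)194Gsat/Mmcd mice. The labels give all mice a background that mixes C57BL/6J with an FVB/N-Swiss Webster hybrid. The labels state that the hybrids obtained from the resource centre carried a recessive photoreceptor degeneration mutation, that they were crossed to C57BL/6J, and that the F2 was used; the genotype of each pool is not given in the sources used here. Retinas of both lines were pooled and the titration was sorted 3 times from different mice. The design text does not state whether the mixtures with 75, 157 and 183 cone cells came from the same pools, so the third arrays may come from 1 pool and were not counted as independent animals.

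Rods and cones are the light-sensing neurons of the retina, rods for dim light and cones for daylight and colour. Both use a chain of opsin, transducin, phosphodiesterase and a cyclic-nucleotide-gated channel, but each link has its own rod and cone gene. Rods far outnumber cones in the mouse retina. In sorted pools, fewer cells of a type and less RNA per cell cannot be told apart, and this applies to every value below.

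Values are log2 RMA values, and a difference is the mean over the 4 cone-rich groups of the third array minus the mean of the first and second arrays of its group, with the SD over the 4 groups. A gene is called shifted where this difference was at least 1 in size and the third array lay outside both others on the same side in each of the 4 groups. By this rule 213 genes (1.71% of those tested) were shifted, 185 lower (1.49%) and 28 higher (0.225%) on the third arrays. After quantile normalization of the 12 arrays the same rule gave 134 lower and 52 higher. The third pure cone array correlated with the first at 0.919 and with the second at 0.920, against 0.955 between the first and second, over all tested genes. With 150 cone cells the third array correlated at 0.942 and 0.938 with the others, against 0.948 between them. On the starburst-rich side the third arrays correlated with the others of their groups at 0.947 to 0.966, and the first with the second at 0.951 to 0.960.

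The rod channel subunit Cnga1 read 7.01, 6.23, 7.48 and 8.02 on the third arrays with 150, 157, 183 and 200 cone cells. Its values in the same group order were 5.87, 4.24, 4.39 and 5.24 on the first arrays and 4.76, 4.33, 4.94 and 4.61 on the second. All of the third arrays lay above all first and second arrays, and the difference was 2.38 ± 0.67 (SD, n = 4 groups), a 5.22-fold higher mean level. Pde6b, the beta subunit of the rod phosphodiesterase and the gene that carries the retinal degeneration mutation of the FVB/N strain, read 7.82, 7.26, 8.08 and 8.5 on the third arrays. On the first arrays it read 6.28, 5.57, 5.33 and 5.81, and on the second 5.43, 4.77, 5.96 and 6.24. Again the groups of arrays did not overlap, with a difference of 2.24 ± 0.25.

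Rod transducin followed with smaller differences. Its alpha subunit Gnat1 read 9.26, 8.86, 10 and 10.41 on the third arrays, against 8.67, 7.5, 7.83 and 8.11 on the first and 8.11, 7.73, 8.79 and 8.28 on the second (difference 1.5 ± 0.58). Its beta subunit Gnb1 read 8.62, 7.79, 8.76 and 9.52 on the third arrays, against 8.30, 7.0, 6.73 and 7.76 on the first and 7.36, 6.72, 7.38 and 7.56 on the second (1.32 ± 0.54). For Gnb1 the third array with 157 cone cells read lower than the first array with 150, so the arrays separated within groups but overlapped between them. In both transducin subunits the difference was larger with 183 and 200 cone cells than with 150 and 157.

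The cone arrestin Arr3, which ends the signal of cone opsins, went the other way. It read 8.33, 7.35, 8.68 and 8.78 on the third arrays, against 9.79, 9.95, 10.48 and 10.48 on the first and 9.90, 10.01, 10.36 and 10.55 on the second (difference -1.91 ± 0.50). The highest of the third arrays still lay below the lowest of the others. Chrnb4, whose regulatory sequence drives the GFP used to sort the cones, was also shifted lower. It read 3.18, 2.86, 3.41 and 3.26 on the third arrays, against 4.49, 4.10, 5.37 and 4.71 on the first and 4.37, 4.49, 4.49 and 4.22 on the second (-1.35 ± 0.15). Its neighbours in the same cluster of nicotinic receptor subunits were shifted lower as well, Chrna5 by -2.16 ± 0.98 and Chrna3 by -1.02 ± 0.42.

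**Figure D1:**
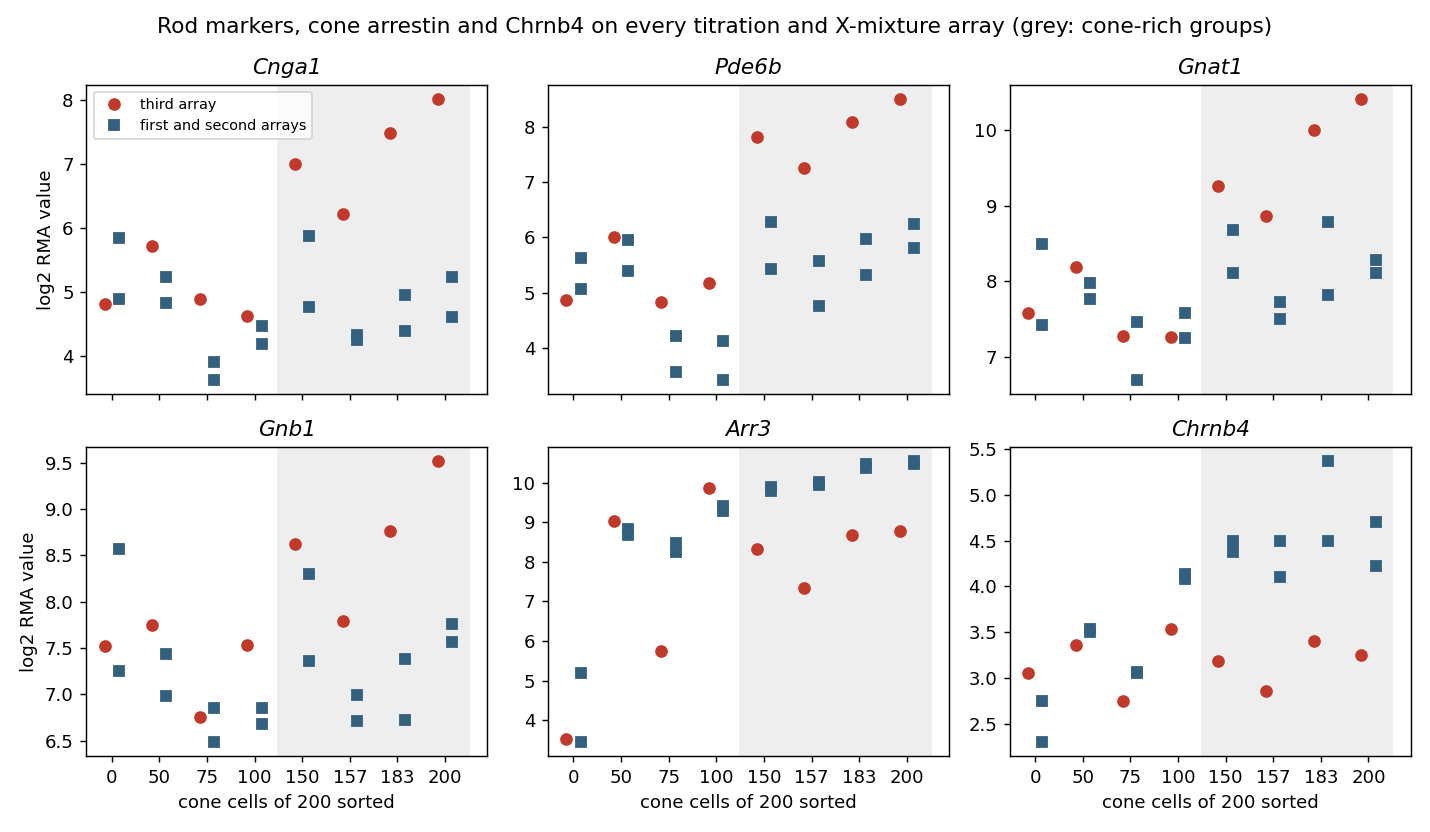
Log2 RMA values (vertical axes) of 4 rod genes, cone arrestin Arr3 and Chrnb4 against the number of cone cells among the 200 sorted (horizontal axes), with the third arrays as red circles left of first and second arrays as blue squares; grey marks the cone-rich groups. In the grey groups the third array always reads higher than both others of its group for the rod genes and lower for Arr3 and Chrnb4, while at 100 cone cells Arr3 reads 9.87 on the third array against 9.40 and 9.27.

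The cone-rich groups with the fewest cone cells lie just inside the rule, at 150, and the group with 100 lies just outside it. There Arr3 read 9.87 on the third array, against 9.40 and 9.27 on the first and second. Gnat1 read 7.26 on the third array, against 7.58 and 7.25. Neither gene had, at 100 cone cells, the difference seen at 150.

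Cone phototransduction genes were the most uniform group on the third arrays. Of 14 tested genes of the cone list, 12 were shifted lower and all 14 were below 0 in each of the 4 groups, which held for 15.1% of all tested genes. Their median difference was -1.79, against -0.02 over all tested genes. This list and the rod list overlap with the values by which the comparison was chosen, so these counts support nothing beyond the description.

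Among the light sensors, the short-wave opsin Opn1sw read 9.0, 8.08, 8.93 and 9.74 on the third arrays, against 10.55 to 11.26 on the first and second (difference -1.99 ± 0.55). The medium-wave opsin Opn1mw differed by -1.43 ± 0.36. Both opsins still read high on the third arrays, so cone markers were reduced and not absent. The transducin subunits Gnat2 (-1.96 ± 0.46), Gnb3 (-2.03 ± 0.84) and Gngt2 (-1.80 ± 0.67) carry the signal on from the opsins.

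The catalytic subunit of cone phosphodiesterase, Pde6c, had the largest difference of the list, -2.63 ± 0.82, and read 5.55, 4.36, 6.51 and 6.65 on the third arrays against 7.94 to 8.93 on the first and second. Its inhibitory subunit Pde6h differed by -1.41 ± 0.57. The channel subunit Cngb3, which pairs with Cnga3 in cones, differed by -2.25 ± 0.32. The potassium channel subunit Kcne2 (-1.63), the coiled-coil protein Ccdc136 (-1.46) and the retinoid receptor Rxrg (-1.78), a transcription factor of cones, completed the shifted members. Cnga3 (-0.43) and the exchanger Slc24a2 (-0.57) were not shifted. Over the 12 arrays Cnga3 read 2.37 to 3.15, near the filter level of 2.83, and Slc24a2 read 2.03 to 3.73.

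The third array with 200 cone cells read below the mean of the first and second arrays with 100 cone cells for 14 of 14 cone genes. It read below their mean with 50 cone cells for 3 of 14, and below that of pure starburst cells for 0. For most of the list its values thus lay between the means of the first and second arrays with 50 and with 100 cone cells.

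The rod list did not move as a block. Of 14 tested genes 6 were shifted higher and 0 lower, 9 were above 0 in each of the 4 groups (7.76% of all tested genes were), 2 were below 0 in each, and the median was 0.53. Beside the 4 genes above, the alpha subunit of rod phosphodiesterase Pde6a (1.16 ± 0.67) and Reep6, an endoplasmic reticulum protein of rods (1.14 ± 0.22), were shifted higher. Pde6a read 3.89, 3.48, 4.58 and 4.90 on the third arrays, against 2.76 to 3.51 on the first and second.

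The other 8 rod genes were not shifted. The rod arrestin Sag read 10.22, 9.70, 10.38 and 10.95 on the third arrays, against 10.41 to 11.06 on the first and second (-0.42 ± 0.27). The inhibitory subunit of rod phosphodiesterase Pde6g differed by -0.39 ± 0.20 and the disc rim protein Rom1 by -0.03 ± 0.18. The rod channel subunit Cngb1 differed by 0.67 ± 0.28 and the rod transcription factor Nrl by 0.30, neither of them shifted. The summed linear level of the rod list was 3156 to 7754 on the third arrays and 3289 to 5395 on the first and second, so these ranges overlapped. For the cone list the sums were 1905 to 5496 on the third arrays and 9503 to 13658 on the others, without overlap.

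Genes that serve rods and cones alike were mostly lower on the third arrays, but by less than the cone genes. Of 24 tested pan-photoreceptor genes 4 were shifted lower and 0 higher, and the median was -0.39. In each of the 4 groups 13 were below 0 (54.2%, against 15.1% of all tested genes) and 2 above (8.33%, against 7.76%). Those above were Rp1 (0.92 ± 0.39) and Grk1 (0.68 ± 0.39), neither of them shifted. The shifted members were Aipl1, a chaperone of phosphodiesterase (-1.58 ± 0.47), the ciliary kinase Mak (-1.17 ± 0.19), the retinoid carrier Rbp3 (-1.09 ± 0.32) and the matrix proteoglycan Impg1 (-1.07 ± 0.40). The calcium sensor Rcvrn differed by -0.89 ± 0.49, the outer segment protein Prph2 by -0.41 ± 0.19, and the transcription factors Crx by -0.35 ± 0.31 and Otx2 by -0.15 ± 0.22, none of them shifted. Ribbon synapse genes, which serve transmitter release of photoreceptors and bipolar cells, had 0 of 15 shifted with a median of -0.38, and 7 were below 0 in each group. Cilium genes had 0 of 25 shifted and a median of -0.29. With 1.71% of all tested genes shifted, a count of 0 in these 2 lists says little.

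Whether a gene rises with the number of cone cells was measured on the 12 starburst-rich arrays, which played no part in choosing the third cone-rich arrays. A limma fit with replicate 3 as a term gave 59 genes (0.474% of those tested) that rose with more cone cells and 29 (0.233%) that fell, at a Benjamini-Hochberg adjusted p under 0.05. Arr3 rose by 4.99 per 100 cone cells on the log2 scale (limma adjusted p = 0.0034) and Sag by 1.51 (0.0239). The rise was not even. On the first and second arrays Arr3 averaged 4.32, 8.74, 8.36 and 9.34 with 0, 50, 75 and 100 cone cells, so most of it lay between 0 and 50. The slopes of Gnat1 (-0.62, limma adjusted p = 0.438), Cnga1 (-0.97, 0.292) and Pde6b (-1.17, 0.246) did not pass.

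Of the 59 genes that rose with cone number, 38 (64.4%) were shifted lower on the third cone-rich arrays and 0 higher, where 1.49% of all tested genes were shifted lower. Their median difference was -1.36, and 51 of them were below 0 in each of the 4 groups. Of the 29 genes that fell with cone number 0 were shifted, and their median difference was -0.02. Without the third arrays in the fit 18 genes rose with cone number, 16 of them among those shifted lower.

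The 21 genes that rose with cone number but were not shifted ran from -0.93, in the scaffold gene Mpp4, to 0.28. Among them were Sag (-0.42), Pde6g (-0.39), Rcvrn (-0.89), Crx (-0.35), the transcription factor Neurod1 (-0.39) and Cacna1f, the calcium channel of the photoreceptor terminal (-0.67). Btg2 of the immediate early list (-0.81) was also among the 21. Rbp3 (-1.09), Aipl1 (-1.58) and Mak (-1.17), which serve rods and cones alike, also rose with cone number and were shifted lower. The 21 unshifted genes read higher with more cone cells on the starburst-rich arrays. Their differences on the third cone-rich arrays were smaller than those of Pde6c, Gnb3 or Arr3, which the size in the rule for shifted genes largely fixes. The difference between these genes and the cone genes was not tested.

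**Figure D2:**
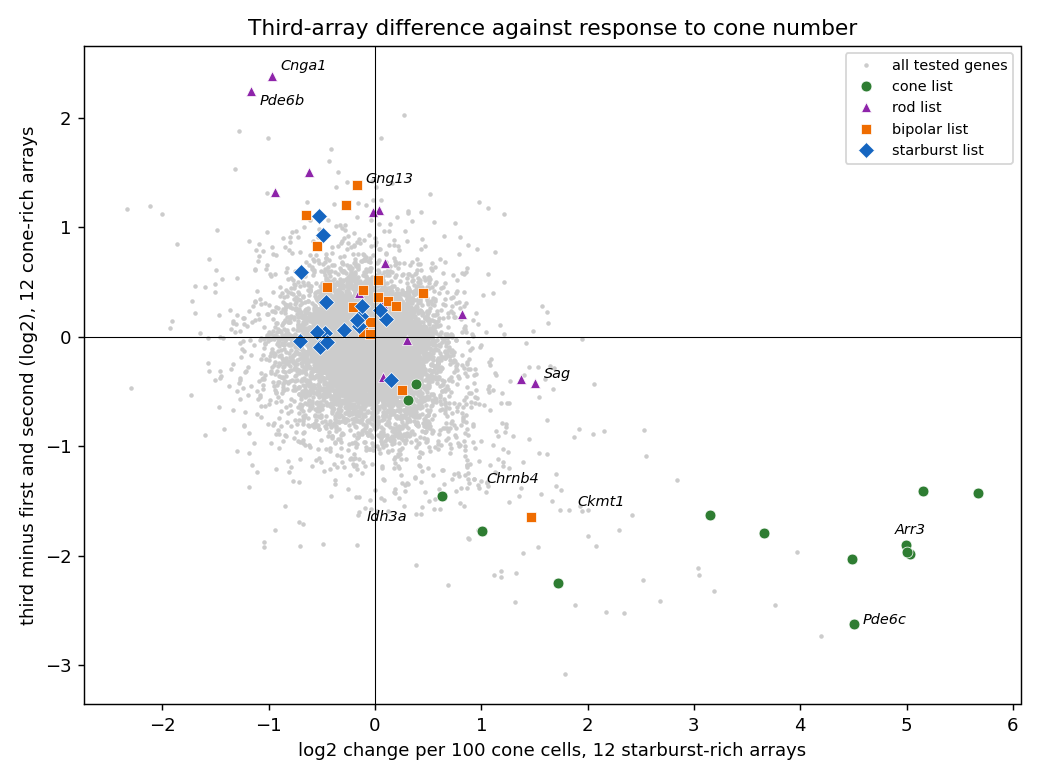
Each point is a tested gene, with its log2 change per 100 cone cells on the 12 starburst-rich arrays (horizontal axis) and its log2 difference, the third minus the first and second, on the 12 cone-rich arrays (vertical axis); colours mark the cone, rod, bipolar and starburst lists. Cone genes lie at the lower right, Arr3 at a slope of 4.99 and a difference of -1.91, and Cnga1 and Pde6b lie at the top with slopes below 0.

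Genes outside the rod, cone and pan-photoreceptor lists made up most of the shifted set, as of all tested genes. These lists held 16 of the 185 genes shifted lower and 6 of the 28 shifted higher, against 52 of all 12441 tested genes. Of the 185 genes 7 were predicted genes without a name, and 142 (76.8%, against 44.6% of all tested genes) had a slope above 0 on cone number. The olfactory receptor pseudogene Olfr1372-ps1 had the largest difference, -3.09. The acyltransferase Mogat1, an enzyme of fat synthesis, read 6.42, 4.94, 6.42 and 7.84 on the third arrays, against 8.54 to 9.61 on the first and second (-2.74 ± 1.02), a 6.67-fold higher mean level on the first and second arrays. Its slope on cone number was 4.19 (limma adjusted p = 0.00198).

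Enzymes and carriers were among the lower genes, while the fixed glycolysis and oxidative phosphorylation lists had 0 genes shifted and the fatty acid and lipid list 1 of 11. Over all tested genes 1.49% were shifted lower. Pygm, the glycogen phosphorylase that releases glucose units from glycogen, read 5.27, 4.36, 5.58 and 5.96 on the third arrays, against 7.07 to 8.39 on the others (-2.45 ± 0.29, slope 1.88, limma adjusted p = 0.0284). Gckr, the regulator of glucokinase, differed by -2.23 ± 0.23 and rose by 2.52 per 100 cone cells (2.2e-04). Fabp7, a fatty acid carrier, read 6.24, 4.41, 5.64 and 6.11 on the third arrays against 7.29 to 8.45 on the others (-2.41 ± 0.64, slope 2.68, 0.00475). The mitochondrial creatine kinase Ckmt1 had a small spread between groups, with a difference of -1.58 ± 0.08 and a slope of 1.82 that did not pass (0.105).

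The other named genes of this set differed by similar amounts. The secreted bridging protein Mfge8 read 5.69, 3.63, 6.16 and 5.87 on the third arrays, against 6.89 to 8.81 on the others (-2.52 ± 0.80). The junction protein Jam3 differed by -2.19 ± 0.55, the GTPase regulator Arhgdib by -2.53 ± 0.67, and Ppm1j, Gulo, Mpp7 and Otop3 by -2.45, -2.42, -2.32 and -2.18. None of these arrays overlapped between the third and the others within a group, as the rule requires.

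A smaller set of lower genes did not rise with cone number over the starburst-rich arrays. Of the 185 genes, 43 had a slope below 0 on the starburst-rich arrays, against 6893 of all 12441 tested genes. The mitochondrial enzyme Idh3a of the citric acid cycle read 6.71, 6.91, 7.01 and 6.30 on the third arrays, against 7.64 to 9.04 on the others (-1.63), with a slope of -0.16. The neuronal tubulin Tubb3 read 4.35, 4.24, 5.29 and 4.10 on the third arrays, against 5.51 to 6.99 on the others (-1.71 ± 0.50, slope -0.68). The lysosomal protease Ctsd differed by -1.57 ± 1.04, with the largest difference on the third pure cone array, which read 4.86 against 8.23 and 7.63. These genes, named after their values were seen, read lower on the third arrays and did not pass as genes of cone number.

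The 28 genes shifted higher had a median difference of 1.32, and 21 had a slope below 0 on cone number, as did 6893 of all 12441 tested genes. The transmembrane protein Slitrk6, a regulator of neurite growth, read 4.33, 5.04, 5.63 and 3.52 on the third arrays, against 1.91 to 3.74 on the first and second (1.88 ± 0.88). Dhrs3, a retinaldehyde reductase found in photoreceptors, read 6.70, 6.62, 6.69 and 7.46 on the third arrays. It read 5.11, 4.13, 4.99 and 6.22 on the first and 5.14, 4.24, 4.38 and 6.22 on the second (1.82 ± 0.52). The lipid-synthesis regulator Thrsp differed by 1.72 ± 0.82.

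Some of the higher genes rested on 1 or 2 groups. The connexin Gja4 read 5.05 and 5.80 on the third arrays with 150 and 200 cone cells but 3.02 and 3.10 with 157 and 183, against 2.63 to 3.08 on all first and second arrays (1.41 ± 1.44). The hormone resistin, Retn, read 7.43 on the third pure cone array, against 4.05 on both others, and the mean difference was 1.60 ± 1.22. On the pure starburst arrays Retn read 7.84 to 7.955. The voltage-gated potassium channel Kcna5 was steadier, at 5.88, 6.93, 7.08 and 6.63 on the third arrays and 4.89 to 5.96 on the others (1.37 ± 0.55). The remaining named genes were Rhebl1 (1.53), the vesicle protein Lamp5 (1.36), the mitochondrial polymerase subunit Polg2 (1.32), Olfr202 (1.30) and the water channel Aqp11 (1.25). Of the 28 higher genes 4, among them Slitrk6 (2.75) and Olfr202 (2.72), averaged under the filter level of 2.83 on the first and second arrays.

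**Figure D3:**
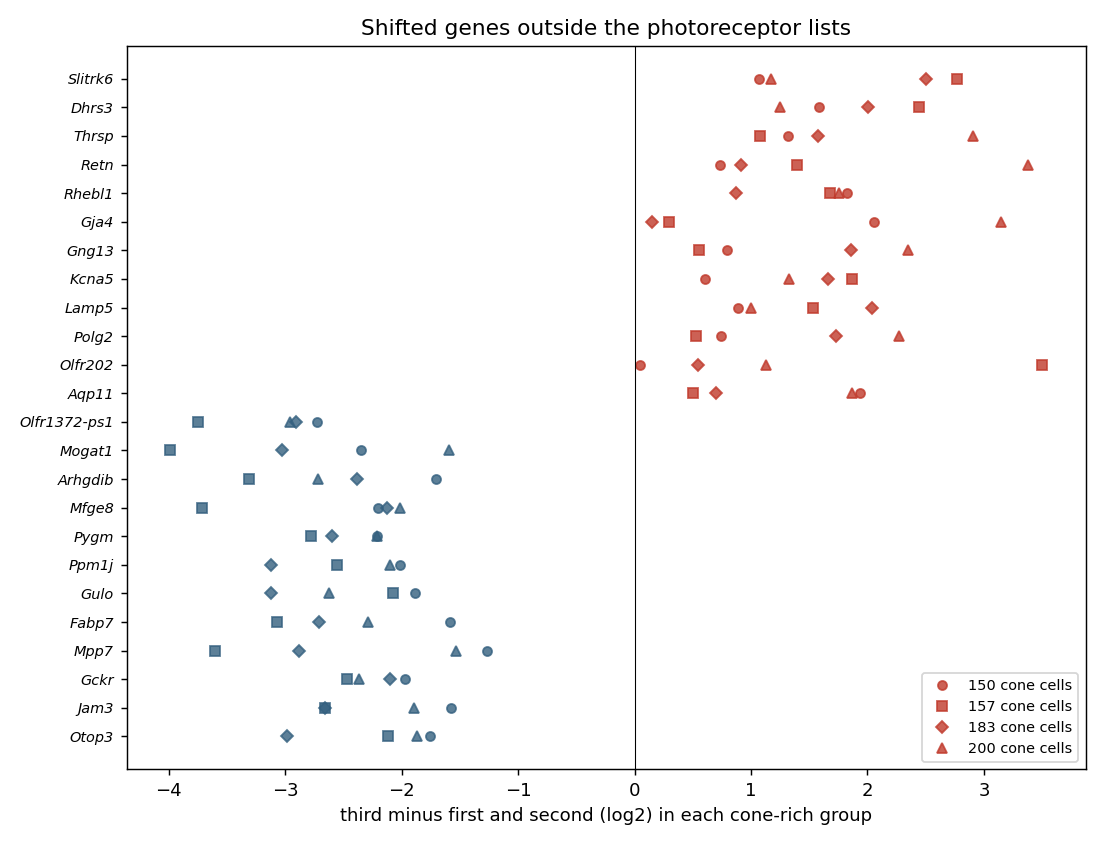
Log2 difference, the third minus the first and second (horizontal axis), in each cone-rich group for the 12 genes shifted most in each direction outside the photoreceptor lists (rows; red higher, blue lower); symbols mark the number of cone cells. Pygm and Gckr keep their 4 groups close together, whereas Gja4 and Olfr202 spread from near 0 to above 3.

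Markers of other retinal cells were followed because a sorted pool can hold them. Bipolar cells relay photoreceptor signals to the inner retina, and 8 of 17 tested bipolar genes were above 0 in each of the 4 groups (47.1%, against 7.76% of all tested genes), with 2 below and a median of 0.37. The G-protein subunit Gng13, an ON bipolar gene, was shifted higher, at 5.80, 6.28, 7.02 and 7.70 on the third arrays and 4.76 to 5.94 on the others (1.39 ± 0.85). The Purkinje cell and bipolar protein Pcp2 read 6.39 and 6.56 on the third arrays with 183 and 200 cone cells, against 4.55 to 4.76 on the others of those groups, but was not shifted. Scgn, a calcium-binding protein of cone bipolar cells, differed by 1.21 ± 0.84. Lrtm1 was shifted lower (-1.65 ± 0.52) and had a slope of 1.47 on cone number, and the carbonic anhydrase-related Car8 (-0.49) was also below 0 in each group. The summed linear level of the bipolar list was 319 to 628 on the third arrays and 367 to 622 on the others, and the receptor Grm6 and channel Trpm1 of ON bipolar cells differed by 0.03 and 0.27. Their part in the rod shift was not tested.

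The starburst list had 1 of 17 genes shifted higher, 0 lower, and a median of 0.15, where 0.225% of all tested genes were shifted higher and 1.49% lower. The shifted gene was Igfbp7, a growth factor binding protein, which read 6.39 on the third pure cone array against 3.39 and 3.29, and 8.46 to 8.76 on the third arrays of the mixtures against 7.36 to 8.48 (1.11 ± 1.30). Some genes chosen after their values were seen read higher on the same array, where the transcription factor Isl1 read 5.82 against 3.54 and 3.66, the calcium-binding calbindin Calb1 3.66 against 1.75 and 2.09, the neuropeptide gene Cck 4.71 against 3.26 and 2.95, and the GABA-synthesising enzyme Gad1 6.17 against 4.98 and 4.45. The vesicular acetylcholine transporter Slc18a3, which defines cholinergic cells, read 2.81 there against 3.56 and 3.10, and calretinin, Calb2, differed by -0.20 there and by 0.58 with 183 cone cells. The amacrine list had 0 of 15 shifted and a median of 0.37, with sums of 671 to 1173 on the third arrays and 488 to 1049 on the others. Of the amacrine genes 5 (33.3%) were above 0 in each of the 4 cone-rich groups and 1 below. Of the starburst list 4 (23.5%) were above 0 in each and 0 below. Over all tested genes 7.76% were above and 15.1% below, so a lean upward was not particular to the bipolar list.

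Glial lists held few shifted genes. Over all tested genes 1.71% were shifted, so counts of 0 in the short lists below say little. The secreted chaperone Clu of the Muller glia list read 6.64, 6.08, 8.22 and 7.44 on the third arrays, against 8.19 to 8.86 on the first and second (-1.52 ± 0.85), while the list had 1 of 16 shifted and a median of 0.01. Of 4 tested astrocyte genes 2, Fabp7 and the glutamate transporter Slc1a2 (-1.38 ± 0.33), were shifted lower, and both had slopes above 0 on cone number, 0.98 for Slc1a2 (limma adjusted p = 0.222). Microglia (median 0.20, 9 tested), horizontal cell (0.12, 6), ganglion cell (0.02, 8), vascular (0.31, 4) and pigment epithelium (0.12, 5) lists had 0 genes shifted.

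Energy and stress lists held no shifted genes. Over all tested genes 1.71% were shifted, so a count of 0 in lists this short says little. Of 30 tested oxidative phosphorylation genes 0 were shifted, but 14 (46.7%, against 15.1% of all tested genes) were below 0 in each of the 4 groups and 0 were above. Their median was -0.28, and the sums were 13687 to 16025 on the third arrays against 16100 to 18904 on the others, without overlap. The complex I subunit Ndufv1 differed by -0.69 ± 0.39, Ndufs1 of the same complex by -0.81, and the complex III subunit Uqcrc1 by -0.67 ± 0.20. Glycolysis genes had 0 of 16 shifted (median -0.16), heat shock genes 0 of 10 (-0.34), immediate early genes 0 of 20 (-0.03), retinal injury genes 0 of 10 (0.11), interferon genes 0 of 9 (0.10), apoptosis and DNA damage genes 0 of 12 (0.08), crystallins 0 of 12 (0.00) and ribosomal protein genes 0 of 16 (-0.04). The chaperone Hspa8, with 9.63, 9.48, 9.47 and 8.86 on the third arrays and 9.57 to 10.07 on the others, differed by -0.48 ± 0.23. The iron-siderophore carrier Lcn2 of the injury list differed by -1.59 and was below 0 in each group, but was not shifted.

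**Figure D4:**
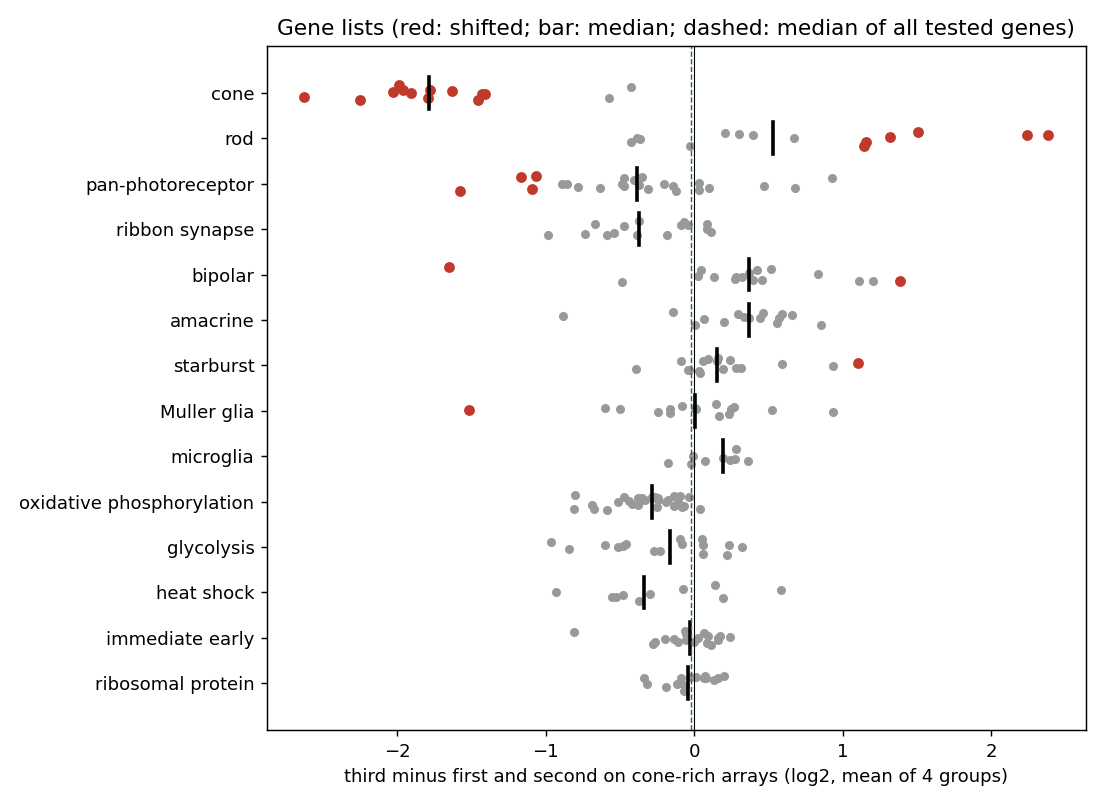
Log2 difference, the third minus the first and second, averaged over the 4 cone-rich groups (horizontal axis) for each tested gene of 14 lists (rows), with shifted genes in red, list medians as black bars and the median of all tested genes as a dashed line. The cone list sits at a median of -1.79, the rod list spreads from -0.42 to 2.38, and the oxidative phosphorylation list lies almost wholly below 0 without a shifted gene.

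The same comparison was then tested on the starburst-rich arrays, where a limma fit with group as a block called 0 of 12441 genes in either direction (smallest adjusted p = 0.333). At an unadjusted p under 0.05 there were 667 genes, 5.36% of those tested. The size rule gave 6 genes lower (0.0482%) and 2 higher (0.0161%) there. Arr3 differed by -0.64 (limma adjusted p = 0.931), Opn1sw by -1.43 (0.889), Cnga1 by 0.39 (0.931), Pde6b by 0.54 (0.889), Gnb1 by 0.25 (0.960) and Gnat1 by 0.00 (0.999). These p-values measure only the spread between arrays, and a p above the threshold does not show that the third arrays were alike.

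The starburst-rich difference in cone genes was largest on 1 array. The third array with 75 cone cells read 5.75 for Arr3 against 8.25 and 8.46, 4.98 for Opn1sw against 8.53 and 8.57, 5.67 for Gnat2 against 8.54 and 8.93, and 3.43 for Pde6c against 6.28 and 6.00. All 14 cone genes were below 0 there, with a median of -1.79. The medians were -0.65 with 0, -0.28 with 50 and 0.02 with 100 cone cells, against -1.69, -2.57, -1.58 and -1.33 with 150, 157, 183 and 200. On the same array the rod list had a median of 0.08. Cnga1 read 4.89 there against 3.91 and 3.61, Pde6b 4.82 against 4.21 and 3.57, and Gnat1 7.28 against 6.70 and 7.46, so Cnga1 and Pde6b lay above both others and Gnat1 between them.

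The genes shifted lower had medians of -0.17, -0.12, -0.46 and 0.02 with 0, 50, 75 and 100 cone cells. Of these, 140 of 185 had a mean difference below 0 on the starburst-rich arrays, as did 6382 of all 12441 tested genes. By group 120, 114, 144 and 90 of the 185 were below 0 with 0, 50, 75 and 100 cone cells. The genes shifted higher had medians of -0.10, 0.17, -0.03 and -0.12, with 14 of 28 above 0, as were 6059 of all 12441 tested genes. In the cone-rich groups that chose them the higher genes had medians of 0.87, 1.02, 1.65 and 1.85 with 150, 157, 183 and 200 cone cells. Kcna5 was the higher gene with the smallest unadjusted p among those named on the starburst-rich arrays, at a difference of 0.62 (3.3e-04, limma adjusted p = 0.884), and in all 4 groups the third array read above both others. On the Arc arrays, with 1 array against 2, the median difference was 0.34 for the rod list and -0.32 for the cone list.

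**Figure D5:**
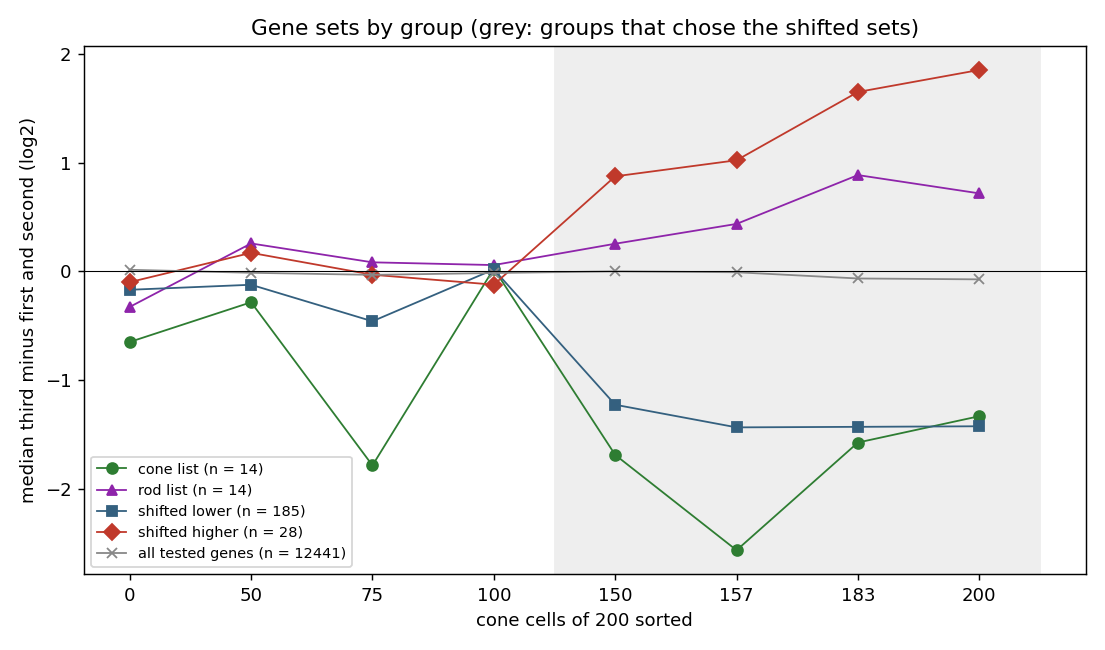
Median log2 difference, the third minus the first and second (vertical axis), of 5 gene sets in each group of the titration and mixtures (horizontal axis, cone cells of the 200 sorted); grey marks the cone-rich groups that chose the shifted sets. The cone list is at -1.79 with 75 cone cells and 0.02 with 100, and the higher genes are at 0.87 with 150 and 1.85 with 200.

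Genes of the sex chromosomes were compared between same-numbered arrays of different groups. The Y-linked Eif2s3y read 2.88, 2.39, 2.78 and 3.70 on the third cone-rich arrays, against 1.73, 1.75, 1.76 and 1.62 on the first and 3.65, 4.62, 4.50 and 5.06 on the second. In each group the third array lay between the first and the second. Xist, expressed from the inactive X chromosome, read 6.35, 5.34, 6.59 and 6.11 on the third arrays, against 6.97, 7.08, 6.87 and 7.57 on the first and 6.46, 5.49, 5.91 and 5.47 on the second. It lay below both others with 150 and 157 cone cells and between them with 183 and 200. The X-linked helicase Ddx3x lay below both others in each group, with a difference of -0.67, and was not shifted. On the third starburst-rich arrays Eif2s3y read 2.33 to 3.49, against 1.72 to 2.1 on the first and 1.77 to 3.04 on the second. Deviations from group means correlated at 0.26 on average between cone-rich arrays numbered 3 (0.23 to 0.30, 6 pairs over genes of shared arrays). The other cone-rich averages between groups were 0.08 for number 1, 0.10 for number 2 and -0.07 between different numbers. On the starburst-rich arrays the averages were 0.03, 0.01 and 0.03 for numbers 1, 2 and 3, and -0.01 between different numbers. The cone-rich arrays numbered 3 were chosen by their cone and rod genes, so the 0.26 is not independent of that choice. Deviations of the 3 arrays of a group cancel, so positive averages within numbers require negative ones between different numbers.

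The shifted genes lay on all autosomes and the X chromosome. None of the 3 tested genes of the Y chromosome was shifted, which says little with 1.71% of all tested genes shifted.

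Promoters of shifted genes were searched for the core TAATCC of the motif of CRX, the homeobox factor that drives photoreceptor genes, on both strands (GGATTA on the other). RefSeq promoter windows of build GRCm38.p6, from 250 bases before to 50 bases from the gene start, were found for 22 of 28 genes shifted higher and 147 of 185 shifted lower. The core was in 2 of 27 windows of the higher genes (7.41%), 18 of 189 of the lower (9.52%) and 767 of 12488 of all tested genes (6.14%). It was in 5 of 10 windows of the rod list and 1 of 17 of the cone list. The bases before the start of Cnga1, the gene shifted most upward, and of Gnat2, a cone gene shifted lower, are shown with the core in capitals. The Gnat2 window is the only 1 of the 17 cone list windows with the core, so it does not stand for the cone genes. The Cnga1 window lies at chr5:72642753-72643002 on the minus strand with its match starting at -228 relative to the gene start, and the Gnat2 window at chr3:108092816-108093065 on the plus strand with its match starting at -19.
Cnga1: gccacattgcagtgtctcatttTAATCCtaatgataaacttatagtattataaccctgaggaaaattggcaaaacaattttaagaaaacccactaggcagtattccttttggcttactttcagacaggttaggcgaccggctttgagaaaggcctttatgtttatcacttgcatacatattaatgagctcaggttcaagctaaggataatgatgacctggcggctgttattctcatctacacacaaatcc
Gnat2: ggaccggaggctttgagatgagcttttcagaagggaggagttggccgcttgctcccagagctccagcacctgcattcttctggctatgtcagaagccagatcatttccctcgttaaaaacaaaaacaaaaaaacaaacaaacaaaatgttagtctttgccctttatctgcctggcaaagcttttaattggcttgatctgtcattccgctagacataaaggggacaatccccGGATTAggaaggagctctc
A match describes these letters in this window and no more.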

How the data were processed

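Biotin-labelled total RNA of 200 sorted cells was read on each of 27 mouse gene arrays. The deposited values are log2 values that the authors made with RMA in the package oligo under R 2.11.1, per the submitters' processing notes, which name build mm9. RMA sets probe intensities to a common distribution, and which arrays were normalized together is not given in the sources used here. The deposited probe set values still differed in spread. Their SD was 1.545 on the third array with 200 cone cells, against 1.663 and 1.644 on the others. It was 1.545 against 1.618 and 1.609 with 157, 1.604 against 1.707 and 1.655 with 183, and 1.601 against 1.596 and 1.709 with 150. The part of this spread in the shifts was not tested. Of 22347 probe sets, 19446 had 1 symbol in GEO's platform annotation, 735 several and 2166 none, and the last 2 kinds were left out. Where a gene had several probe sets (133 genes), the brightest on average stood for it. Of 19301 genes, 12441 above 2.83, the median of all values, on at least 3 arrays were tested. No pair of arrays held identical values, and precision is limited by how few arrays there are.

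The cone-rich comparison has no p-value. Starburst-rich arrays were fitted in R 4.3.3 by limma 3.58.1 (lmFit, then eBayes, with 7 residual degrees of freedom), two-sided, with Benjamini-Hochberg adjustment over all tested genes, and the steps were tested on simulated data. The 31 lists held 502 genes, of which 366 were tested, and 2 symbols were updated. Genes were named by a rule: the 5 markers, the 12 genes shifted most each way outside the rod, cone and pan-photoreceptor lists, and per list up to 4 shifted and 2 bright unshifted members; Xist and Eif2s3y always. The other named genes were chosen after their values were seen, among them Chrnb4, Chrna3, Chrna5, Idh3a, Ckmt1, Tubb3, Ctsd, Plpp1, Pcp2, Scgn, Isl1, Cck, Gad1, Calb1, Ndufv1 and the unshifted members of the photoreceptor lists. The members and the lists were chosen with earlier results of these data known.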

Additional observations from a re-analysis of the deposited data

Results flagged for a closer look

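For 4 of the 162 named genes the third array of each cone-rich group moved one way from the mean of the first and second arrays and the third array of each starburst-rich group the opposite way; the differences between the 2 kinds of arrays were not tested. The lipid phosphatase Plpp1 differed by -1.70 on the cone-rich arrays and by 1.1 on the starburst-rich arrays, where the third array with 75 cone cells read 6.02 against 3.30 and 3.36. Reep6, the rod endoplasmic reticulum protein, differed by 1.14 and -0.29. The rod exchanger Slc24a1 differed by 0.40 and -0.15, and the amacrine transcription factor Pax6 by 0.66 and -0.155.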

How the results depend on the processing

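The count of genes shifted higher was the least stable: 28 became 16 with the stricter filter on dim genes, 52 after quantile normalization of the 12 arrays, 56 without the group with 150 cone cells, 54 without that with 157 and 94 at a size of 0.5. The genes shifted lower (185) became 283 without the group with 150 cone cells and 572 at a size of 0.5, and the total of 213 became 339, 325 without the group with 157, and 666. Leaving out the first or the second arrays gave 46 to 49 higher, 242 to 255 lower and 291 to 301 in all. The rule asks for less when a group or a replicate is left out or the size is lowered. Higher counts under these settings are therefore not a measure of instability alone. After quantile normalization 27 of the 28 and 133 of the 185 genes were shared with the deposited scale; the 150-cone group, when left out, kept 28 and 178. Among 162 named genes and 12 alternatives 1915 values moved by less than 1 SD over the groups, 29 moved by more and 0 turned round. On the starburst-rich arrays limma's adjusted count was 0 under every alternative run, including that without the 75-cone group, which was added after seeing the data; the 667 genes at an unadjusted p became 299 with the stricter filter. The 88 slope genes became 24 without replicate 3 (59 rising became 18, and 38 shared with the lower genes became 16), and 81 with replicate number as a block. No paired analysis was possible because replicate number is itself what the third arrays are compared by. Of the genes shifted lower 8 averaged under the filter level on the third arrays, where a further fall could not be seen.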
